A study of Saccharomyces cerevisiae with 4 samples.

Results

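A set of 10 yeast genes of alcohol and butanediol metabolism were described by their small RNA values: the alcohol dehydrogenase genes ADH1 to ADH5, the pyruvate decarboxylase genes PDC1, PDC5 and PDC6, and the butanediol dehydrogenase genes BDH1 and BDH2. They were chosen by identifier, though with earlier results of these data known. All 10 were found among the 5798 genes of the deposited table. Small RNAs of 10 to 40 nucleotides were sequenced from Saccharomyces cerevisiae, the budding yeast, in 4 libraries, 1 for each of 4 genotypes. The library called xrn1 RNAi came from xrn1-delta DCR1 AGO1 cells (strain YAM1982), RNAi from DCR1 AGO1 cells (YAM1725), xrn1 from xrn1-delta cells (YAM2271) and WT from wild-type cells (YAM1730). DCR1 encodes a Dicer enzyme and AGO1 an Argonaute protein; together they rebuild the RNA interference pathway that budding yeast lacks. XRN1 encodes the cytoplasmic 5′ to 3′ exoribonuclease. Each genotype was 1 strain, and the labels do not name the promoters that drive DCR1 and AGO1.

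In fermenting yeast, pyruvate decarboxylase turns pyruvate into acetaldehyde, and alcohol dehydrogenase reduces acetaldehyde to ethanol. Butanediol dehydrogenase interconverts acetoin and 2,3-butanediol, a side branch of the same carbon flow. Dicer cuts double-stranded RNA, such as that formed by a messenger and an antisense transcript, into small RNAs that Argonaute binds, and many yeast antisense transcripts are known substrates of Xrn1.

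The libraries held 7686801 reads over genes in xrn1 RNAi, 1801407 in RNAi, 2825322 in xrn1 and 627607 in WT, so WT was the least precise. Values are given as deposited: each read counted for 0.0762 in xrn1 RNAi, 0.318 in RNAi, 0.330 in xrn1 and 1 in WT. Values are not divided by gene length unless given per kb of coding length. Intervals are 95% intervals of counting error alone: Poisson for values, exact Clopper-Pearson for shares and for ratios of values. With 1 library per genotype, no comparison has a replicate check and none is tested; higher and lower describe the libraries. More small RNA per cell and more cells yielding it cannot be told apart in these bulk samples. XRN1 itself had 0 reads in xrn1 RNAi and 39 in RNAi, and 3 reads in xrn1 and 148 in WT, as the labels of the libraries state.

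The sequences show which members could exchange reads. ADH1 and ADH2, on chromosomes XV and XIII, had coding regions of 1047 bases each that were 88.8% identical, and their longest identical run was 189 bases. In the stretches below, from coding base 162 to 411 in RefSeq assembly R64 (ADH1 at chrXV:160184-160433 and ADH2 at chrXIII:873927-874176, both on the minus strand), capitals mark the bases that differ. They are shown because a small RNA from the lower-case run could have come from either gene.
ADH1: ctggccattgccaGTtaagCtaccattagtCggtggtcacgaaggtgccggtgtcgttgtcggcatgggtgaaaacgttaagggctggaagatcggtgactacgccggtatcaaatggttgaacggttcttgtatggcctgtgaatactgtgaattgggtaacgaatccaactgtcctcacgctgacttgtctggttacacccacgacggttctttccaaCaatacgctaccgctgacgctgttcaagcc
ADH2: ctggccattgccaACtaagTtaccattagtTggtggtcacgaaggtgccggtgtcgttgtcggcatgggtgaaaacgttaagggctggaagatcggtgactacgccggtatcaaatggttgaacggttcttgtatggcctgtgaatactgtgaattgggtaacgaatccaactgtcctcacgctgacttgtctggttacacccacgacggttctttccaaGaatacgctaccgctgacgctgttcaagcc

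PDC1 and PDC5, both on chromosome XII, were 87.2% identical over 1692 aligned bases, and their longest identical run was 65 bases. The stretches from coding base 253 to 502 (PDC1 at chrXII:233580-233829, minus strand, and PDC5 at chrXII:410975-411224, plus strand) surround that run, again with differing bases in capitals. Differences were more scattered than in the ADH1 and ADH2 stretches, with 14 of 250 bases differing, against 5 of 250.
PDC1: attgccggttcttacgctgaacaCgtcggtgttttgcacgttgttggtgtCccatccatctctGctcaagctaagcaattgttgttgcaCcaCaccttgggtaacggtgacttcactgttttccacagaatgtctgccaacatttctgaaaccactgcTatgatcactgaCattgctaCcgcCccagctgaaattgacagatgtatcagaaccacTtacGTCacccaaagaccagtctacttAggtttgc
PDC5: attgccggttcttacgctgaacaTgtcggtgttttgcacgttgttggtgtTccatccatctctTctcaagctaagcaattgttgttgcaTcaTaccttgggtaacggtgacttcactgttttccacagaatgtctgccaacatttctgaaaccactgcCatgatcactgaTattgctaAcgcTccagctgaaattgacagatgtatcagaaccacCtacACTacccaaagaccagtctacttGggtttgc

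Of the windows of 23 bases in the ADH1 coding region, 21.7% also occurred in ADH2, and none of its windows occurred in ADH3, ADH4 or ADH5. For PDC1 the share of windows found elsewhere in the genome was 7.78%, for PDC5 8.50% and for PDC6 1.56%. ADH3 and ADH5 shared 1 window with each other, and ADH4, BDH1 and BDH2 had no window with a second copy. BDH1 and BDH2 lie side by side on chromosome I, 453 bases apart on the same strand, and were 60.1% identical, with no window of 18 bases in common. The labels do not say how reads with several matches were counted, so the values of ADH1, ADH2, PDC1, PDC5 and PDC6 are uncertain to that extent. For ADH3 and ADH5 the same holds over the 1 window they share. No feature annotated in R64 overlapped the coding region of any of the 10 genes; that annotation lists no antisense transcripts over them, and the strand of the reads is not known.

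**Figure D1:**
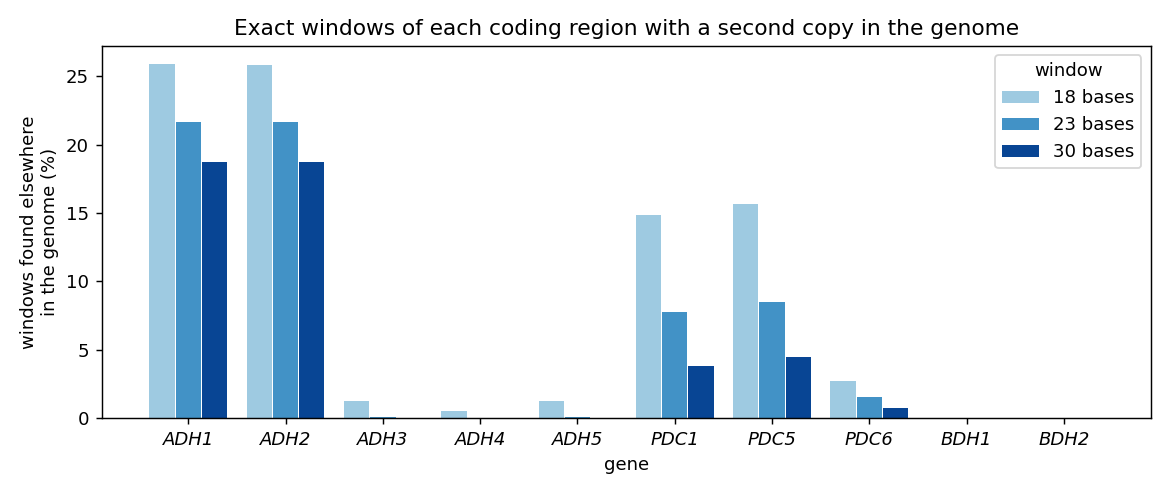
Share of windows of 18, 23 and 30 bases (bars, in percent, exact matches on either strand) of each gene's coding region that occur a second time in the R64 genome. ADH1 and ADH2 stand at 21.7% for 23 bases, PDC1 at 7.78%, and both BDH genes at 0.

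ADH1 (YOL086C), which encodes the main enzyme of ethanol formation, had the highest value of the 10 genes in xrn1 RNAi and RNAi, and the highest after PDC1 in xrn1 and WT. Its values were 4938 in xrn1 RNAi (interval 4900 to 4976), 3388 in RNAi (3324 to 3453), 924 in xrn1 (890 to 959) and 231 in WT (202 to 263). The intervals of the 4 libraries were separate, and ADH1 ranked 8th of all listed genes in xrn1 RNAi, 24th in RNAi, 59th in xrn1 and 341st in WT. ADH2 (YMR303C), the glucose-repressed gene whose enzyme mainly oxidises ethanol, was high in 1 library: 152 in xrn1 RNAi (146 to 159), 13.3 in RNAi (9.61 to 18.03), 16.9 in xrn1 (12.5 to 22.2) and 13 in WT (6.92 to 22.2). The intervals of the other 3 libraries overlapped. ADH5 (YBR145W), a gene for a minor isoenzyme, was likewise highest in xrn1 RNAi, at 86.7 (81.8 to 91.9), against 10.8 in RNAi, 30.1 in xrn1 and 19 in WT. ADH3 (YMR083W), the gene for the mitochondrial isoenzyme, varied least by the ratio of highest to lowest value, with 129 in xrn1 RNAi, 48.3 in RNAi, 139 in xrn1 and 86 in WT. ADH4 (YGL256W) encodes an enzyme of a separate, metal-activated family, and its coding region was 56.4% to 58.1% identical to those of the other ADH genes. It had values of 1.75 in xrn1 RNAi (23 reads), 1.27 in RNAi (4 reads), 63.1 in xrn1 and 34 in WT, so both libraries with DCR1 and AGO1 were low.

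PDC1 (YLR044C), the gene for the major pyruvate decarboxylase, was highest in xrn1. Its values were 112 in xrn1 RNAi (107 to 118), 452 in RNAi (429 to 476), 1395 in xrn1 (1353 to 1437) and 454 in WT (413 to 498). On the deposited scale the intervals of RNAi and WT overlapped and xrn1 RNAi was the lowest; with size factors, another scaling that centres the nuclear genes, PDC1 was higher in RNAi than in WT by 1.89 on the log2 scale. PDC5 (YLR134W), a gene known to be expressed when PDC1 is missing, had 2.06 in xrn1 RNAi, 14.9 in RNAi, 7.27 in xrn1 and 27 in WT, from 22 to 47 reads a library. PDC6 (YGR087C), for a minor isoenzyme, had 4 reads in xrn1 RNAi, 3 in RNAi, 1 in xrn1 and 14 in WT, so its level rests on few reads.

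BDH2 (YAL061W), which encodes a putative dehydrogenase similar to BDH1, was high wherever DCR1 and AGO1 were present. It had 525 in xrn1 RNAi (512 to 537), 646 in RNAi (618 to 675), 51.5 in xrn1 (43.8 to 60.3) and 76 in WT (59.9 to 95.1). BDH1 (YAL060W), the gene for the characterised butanediol dehydrogenase, had 126 in xrn1 RNAi (120 to 132), 272 in RNAi (254 to 290), 217 in xrn1 (200.5 to 234) and 65 in WT (50.2 to 82.8). No 2 of its intervals overlapped, and WT was lowest.

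**Figure D2:**
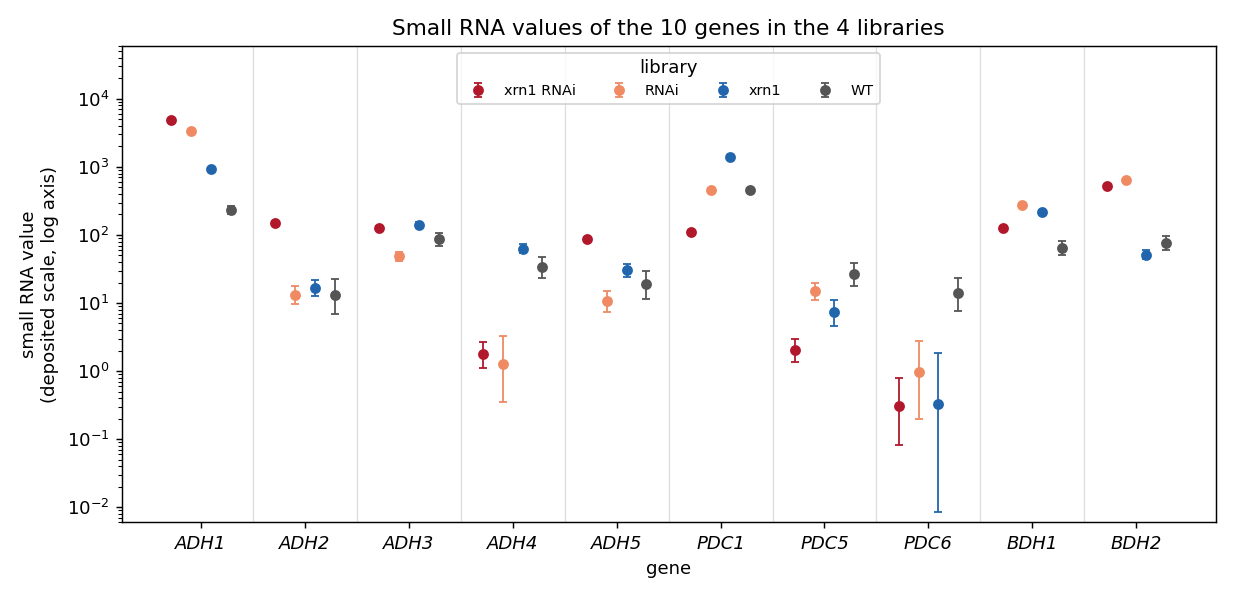
Small RNA value of each gene (deposited scale, log axis) in the 4 libraries; points are single libraries and bars 95% Poisson intervals. ADH1 lies between 231 in WT and 4938 in xrn1 RNAi, while ADH4 lies under 2 in both libraries with DCR1 and AGO1.

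Within a family, shares of reads do not depend on how libraries were scaled. ADH1 took 93.0% of the reads over the 5 ADH genes in xrn1 RNAi (92.8% to 93.2%), 97.9% in RNAi (97.6% to 98.1%), 78.7% in xrn1 (77.4% to 80.1%) and 60.3% in WT (55.2% to 65.2%). ADH3 took 2.42% in xrn1 RNAi, 1.39% in RNAi, 11.9% in xrn1 and 22.5% in WT. ADH4 took 0.0330% in xrn1 RNAi and 0.0367% in RNAi, against 5.38% in xrn1 and 8.88% in WT. The ADH family was thus mostly ADH1 in all 4 libraries, and more so in those with the rebuilt pathway.

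Per kb of coding length, the value of ADH1 was 32.4 times that of ADH2 in xrn1 RNAi (interval 31.0 to 33.9), 254 times in RNAi (188 to 353), 54.8 times in xrn1 (41.6 to 73.8) and 17.8 times in WT (10.2 to 33.9). The ratio was thus far from constant between libraries, although the genes share 222 windows of 23 bases. The part of reads from the shared run in the values of ADH2 was not tested.

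PDC1 took 97.9% of the reads over the 3 PDC genes in xrn1 RNAi, 96.6% in RNAi, 99.5% in xrn1 and 91.7% in WT (88.9% to 94.0%). PDC5 took 1.80% in xrn1 RNAi, 3.19% in RNAi, 0.518% in xrn1 and 5.45% in WT. The order of PDC1 and ADH1 changed. The value per kb of ADH1 was 71.1 times that of PDC1 in xrn1 RNAi (67.5 to 74.9) and 12.1 times in RNAi (11.5 to 12.8), against 1.07 times in xrn1 (1.02 to 1.12) and 0.822 times in WT (0.699 to 0.966).

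The neighbouring BDH genes exchanged places as well. BDH2 took 80.6% of the pair's reads in xrn1 RNAi (79.8% to 81.5%) and 70.4% in RNAi (68.7% to 72.1%), against 19.2% in xrn1 (16.6% to 22.1%) and 53.9% in WT (45.3% to 62.3%). Per kb, BDH2 was 3.81 times BDH1 in xrn1 RNAi and 2.18 times in RNAi, but 0.218 times in xrn1, and in WT the interval of the ratio (0.759 to 1.52) included equality.

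**Figure D3:**
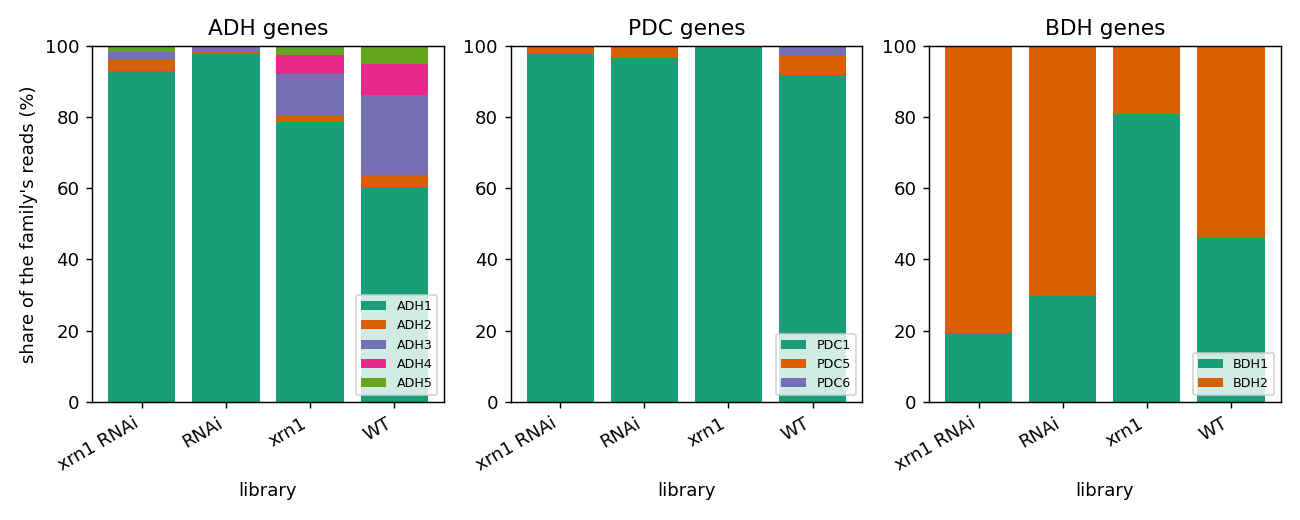
Share of reads (percent) that each gene took within the ADH, PDC and BDH families, with 1 stacked bar per library. ADH1 fills 93.0% and 97.9% of the ADH bars of xrn1 RNAi and RNAi, against 78.7% in xrn1 and 60.3% in WT, and BDH2 is the larger part of the BDH bar in the libraries other than xrn1.

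The addition of DCR1 and AGO1 addressed which genes have more small RNA when the pathway is present, and it could be read in cells without and with XRN1. A gene was counted as higher or lower at a difference of 1 or more in log2(value + 3.18), where one of the libraries compared had a value of at least 3.18. Without XRN1 (xrn1 RNAi over xrn1), 4 of the 9 counted members were higher and 2 lower, beside 15.3% higher and 58.1% lower of all genes counted. With XRN1 (RNAi over WT), 3 of 10 were higher and 2 lower, beside 15.2% higher and 60.3% lower of all genes. The excess of lower genes depends on the scaling, whose rule is not known. With size factors 33.4% of all genes were higher and 32.1% lower without XRN1, and 34.7% higher and 32.8% lower with it, while 5 members were higher and 2 lower without XRN1, and 6 higher and 2 lower with it. Size factors centre the nuclear genes, so near-equal shares follow from that scaling. With each library divided by its sum, the excess remained. It was then 21.9% of all genes higher and 47.8% lower without XRN1, and 16.4% higher and 58.6% lower with it. The median log2 difference of the members was -0.11 without XRN1 and -0.34 with it, while that of all nuclear genes was -1.45 without XRN1 and -1.56 with it, so a gene at equal values in both libraries stood above the typical gene.

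ADH1 and BDH2 were higher with the pathway in both backgrounds. ADH1 was 5.34-fold higher in xrn1 RNAi than in xrn1 (interval 5.15 to 5.55) and 14.7-fold higher in RNAi than in WT (12.9 to 16.8). BDH2 was 10.2-fold higher without XRN1 (8.68 to 12.0) and 8.50-fold higher with it (6.76 to 10.8). These intervals overlap, whereas those of ADH1 do not.

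On the deposited scale, ADH2 and ADH5 passed 2-fold in cells without XRN1 and not in cells with it; the difference between the backgrounds was not tested. ADH2 was 9.04-fold higher in xrn1 RNAi than in xrn1 (6.85 to 12.2), against a ratio of 1.03 for RNAi over WT (0.540 to 2.08). ADH5 was 2.88-fold higher without XRN1 (2.33 to 3.61), and with XRN1 its ratio was 0.568 (0.315 to 1.05). Among nuclear genes, 97.5% had a smaller difference between the backgrounds than ADH2 (log2 difference without XRN1 minus that with it, 2.93), and 93.3% a smaller one than ADH5 (2.10). With size factors ADH2 passed 2-fold in both, with log2 differences of 4.39 without XRN1 and 1.66 with it, and ADH5 had 2.92 without XRN1 and 0.95 with it.

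ADH4 was lower with the pathway in both backgrounds, 36.0-fold in xrn1 RNAi against xrn1 (23.3 to 58.2) and 26.8-fold in RNAi against WT (9.55 to 104). PDC1 was 12.4-fold lower without XRN1 (11.7 to 13.2), while its ratio with XRN1 was 0.995 (0.895 to 1.11). With size factors PDC1 was still lower without XRN1 (log2 difference -2.01) and was higher with XRN1 (1.89). Its log2 difference between the backgrounds, -3.59, was among the lowest, with 0.290% of nuclear genes below it. BDH1 was 4.18-fold higher with XRN1 (3.24 to 5.46), and without XRN1 the ratio was 0.581 (0.531 to 0.637). With size factors that last log2 difference of BDH1 was 0.81 in place of -0.77. ADH3 and PDC5 were called neither higher nor lower in either background on the deposited scale. With size factors ADH3 passed the 2-fold limit in both, with log2 differences of 1.46 without XRN1 and 1.04 with it. PDC5 only just missed the limit without XRN1, with a log2 difference of -0.997. Its ratio of values there was 0.283 (0.155 to 0.522). With a smaller amount added to the values before taking logs, that log2 difference was -1.68, which passed the limit. PDC6 was lower in RNAi than in WT, from 3 reads against 14 (14.7-fold, interval 4.10 to 79.7), and was not counted without XRN1.

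**Figure D4:**
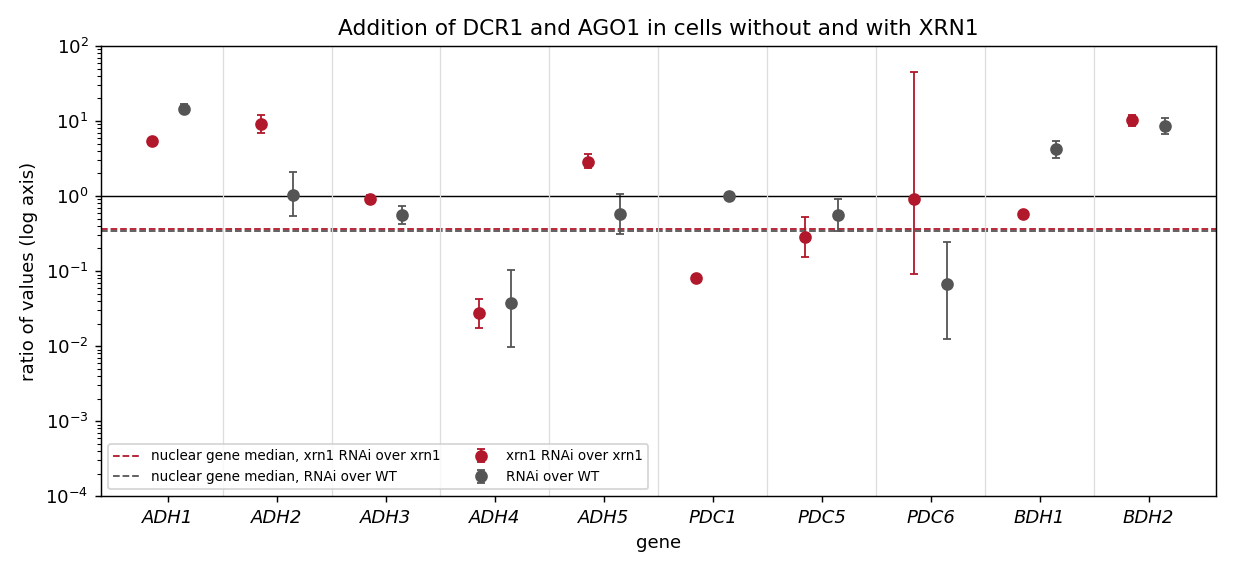
Ratio of values (log axis) on addition of DCR1 and AGO1 for each gene, without XRN1 (xrn1 RNAi over xrn1, left of each pair) and with XRN1 (RNAi over WT), with 95% intervals of counting error. Dashed lines are the median difference of log2(value + 3.18) over nuclear genes, as a ratio (0.365 and 0.339). ADH1 and BDH2 lie above 1 in both, ADH4 below the dashed lines in both, and PDC1 stands at 0.0804 and 0.995.

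The reads of all 4 libraries were also fitted with an additive model of both changes (edgeR's quasi-likelihood test with Benjamini-Hochberg adjustment over 5429 genes), in which the other change serves as the replicate and 1 residual degree of freedom remains. It called 1129 genes higher (20.8%) and 1043 lower (19.2%) with DCR1 and AGO1, relative to the typical gene. Of the 9 members tested, 4 were called higher and 1 lower. BDH2 had a log2 fold change of 4.88 (adjusted p = 0.0004499), ADH2 of 3.38 (0.001892), ADH1 of 4.81 (0.009815) and ADH5 of 2.09 (0.0325), and ADH4 of -3.34 (0.003014). BDH1 had 2.29 with an adjusted p of 0.05627 (range over the other settings 0.009812 to 0.05947), and PDC1 -0.16 with an adjusted p of 0.9256; PDC6 had too few reads to be tested. The model averages the backgrounds, so that genes such as ADH2 and PDC1, whose ratios differ between them, are described by it only in part.

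Deletion of XRN1 addressed which small RNAs differ when the exonuclease is missing. In cells with the pathway (xrn1 RNAi over RNAi), 3 of the 8 counted members were higher and 3 lower, beside 33.1% higher and 11.8% lower of all genes. In cells without it (xrn1 over WT), 3 of 10 were higher and 2 lower, beside 33.2% higher and 9.90% lower of all genes. With size factors the shares of all genes were 20.6% higher and 24.4% lower with the pathway, and 20.1% higher and 16.9% lower without it. With each library divided by its sum they were 33.2% higher and 12.3% lower with the pathway, and 18.1% higher and 19.7% lower without it. Under that scaling the excess of higher genes remained with the pathway and was not seen without it, so it depends on the scaling. The median log2 difference of the members was 0.12 with the pathway, where that of nuclear genes was 0.55, and 0.63 without it, where that of nuclear genes was 0.51. The comparisons share libraries with those of the pathway above, so they are not separate evidence.

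With the pathway present, ADH2, ADH5 and ADH3 were higher without XRN1, although ADH3 lost this call with size factors (log2 difference 0.64). ADH2 was 11.4-fold higher (8.42 to 15.9), ADH5 8.03-fold (5.71 to 11.7) and ADH3 2.66-fold (2.25 to 3.16). The ratio of ADH1 was 1.46 (1.43 to 1.49), close to the nuclear median of 1.46, so the most abundant member moved with the typical gene. PDC1 was 4.03-fold lower (3.74 to 4.34), PDC5 7.25-fold lower (4.43 to 12.1) and BDH1 2.16-fold lower (1.98 to 2.34). The ratio of BDH2 was 0.812 (0.772 to 0.853), under the 2-fold limit, but with size factors BDH2 was counted as lower (log2 difference -1.06).

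Without the pathway, ADH1, PDC1 and BDH1 were higher in xrn1 than in WT, by 3.999-fold (3.50 to 4.59), 3.07-fold (2.79 to 3.39) and 3.33-fold (2.58 to 4.37). PDC5 was 3.71-fold lower (2.04 to 6.84) and PDC6 42.4-fold lower, from 1 read against 14 (6.45 to 1792). ADH2 to ADH5 and BDH2 differed by less than 2-fold, but BDH2 was counted as lower with each library divided by its sum (log2 difference -1.07). PDC1 and BDH1 were thus higher in xrn1 cells without the pathway and lower with it, while PDC5 was lower in both. In the additive edgeR fit, 0 of the 9 tested members were called for XRN1 deletion, beside 10 genes higher (0.184%) and 13 lower (0.239%) of 5429. At an unadjusted p under 0.05 the fit had 1 of the 9 members, PDC5 (log2 fold change -2.85, adjusted p = 0.1048), beside 728 of all 5429 genes. DESeq2's Wald test called that 1 member (adjusted p = 0.02231), beside 94 genes higher and 112 lower of 5798. With edgeR the adjusted p of PDC5 was 0.08134 with median-of-ratios normalization and 0.09953 with all genes that had a read.

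**Figure D5:**
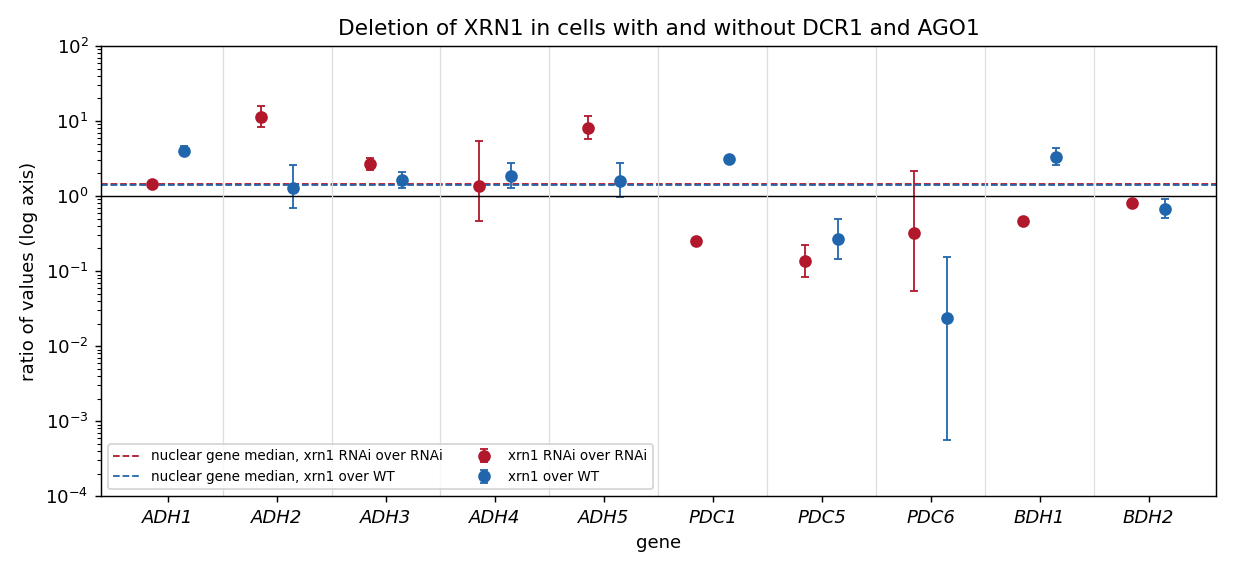
Ratio of values (log axis) on deletion of XRN1 for each gene, in cells with the pathway (xrn1 RNAi over RNAi, left of each pair) and without it (xrn1 over WT), with 95% intervals of counting error. Dashed lines are the nuclear medians, 1.46 and 1.42, which nearly coincide. PDC1 and BDH1 lie on opposite sides of 1 in the pair, and ADH2 and ADH5 reach 11.4 and 8.03 with the pathway.

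The nearest listed genes were examined for the 8 members with a value of at least 31.8 in one library. ADH1 faces MHF1, a gene for a DNA repair protein, whose coding region ends 102 bases beyond it on the opposite strand. MHF1 had 25.9 in xrn1 RNAi, 15.6 in RNAi, 71.4 in xrn1 and 20 in WT. These values, not divided by gene length, were below those of ADH1 in all 4 libraries. MHF1 was the only convergent gene among these nearest listed neighbours. ADH4 starts 1001 bases from the divergent gene MNT2, which encodes a mannosyltransferase. MNT2 had 863 in xrn1 RNAi and 2002 in RNAi, against 142 in xrn1 and 85 in WT, the opposite direction from ADH4. GDH3, a glutamate dehydrogenase gene 507 bases before BDH2 on the same strand, had 130 in xrn1 RNAi and 906 in RNAi, against 17.5 in xrn1 and 54 in WT. GDH3, like BDH2, was therefore higher in the libraries with DCR1 and AGO1, and ECM1, the gene that follows BDH1, was lower in them, with 18.8 in xrn1 RNAi and 7.30 in RNAi, against 96.1 in xrn1 and 38 in WT. STU2, the gene before PDC1 on the same strand and a microtubule regulator, had 342 in xrn1 RNAi, 332 in RNAi, 145 in xrn1 and 257 in WT.

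Patterns over the 4 libraries were compared by the Euclidean distance of log2(value + 3.18), centred per gene, among genes with a value of at least 31.8 in one library. Of 4942 other genes, the nearest to ADH1 were YJL118W (distance 0.23), the nucleoporin gene NUP53 (0.27) and YHL026C (0.28). NUP53 had 687 in xrn1 RNAi, 521 in RNAi, 116 in xrn1 and 25 in WT. BDH2 was the member nearest to ADH1 (1.88), and ADH2 stood at 2.78. The nearest to PDC1 were CBR1, a cytochrome b5 reductase gene (0.52), the chitin synthesis gene SKT5 (0.57) and VTC2, a polyphosphate synthesis gene (0.58), while ADH1 stood at 5.26 from it. These distances describe 4 libraries and carry no test.

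Among 7 aldehyde dehydrogenase and acetyl-CoA synthetase genes, 1 was higher and 3 lower in xrn1 RNAi over xrn1 (15.3% higher and 58.1% lower of all genes), and 1 higher and 4 lower in RNAi over WT (15.2% higher and 60.3% lower of all genes). These shares are near those of all genes. The higher gene without XRN1 was ALD2, with 42.9 in xrn1 RNAi and 12.2 in xrn1. With XRN1 it was ALD4, the main mitochondrial aldehyde dehydrogenase gene, with 186 in RNAi and 38 in WT. ALD4 was under 2-fold without XRN1, with 308 in xrn1 RNAi and 221 in xrn1. ALD6, the main cytosolic one, was lower in both, with 61.4 in xrn1 RNAi, 12.7 in RNAi, 534 in xrn1 and 92 in WT. Without the pathway, 5 of the 7 were higher and 1 lower in xrn1 than in WT, where 33.2% of all genes were higher and 9.90% lower. Among 5 other dehydrogenase and decarboxylase genes, 3 were higher and 2 lower in xrn1 RNAi over xrn1, and 2 higher and 3 lower in RNAi over WT. ARO10, a phenylpyruvate decarboxylase gene, had 3404 in xrn1 RNAi, 256 in RNAi, 449 in xrn1 and 43 in WT. ADH6, an NADPH-dependent alcohol dehydrogenase gene, had 712 in xrn1 RNAi, 429 in RNAi, 190 in xrn1 and 71 in WT. Both were in the same order of libraries as ADH1 except that ARO10 was lower in RNAi than in xrn1. SFA1 and THI3, of the same list, were instead lower with the pathway in both backgrounds. For xrn1 RNAi over xrn1 the ratio of values was 0.0887 for SFA1 and 0.272 for THI3. For RNAi over WT it was 0.159 for SFA1, from 8 reads against 16, and 0.257 for THI3. ADH7 was higher without XRN1 (ratio 4.77) and lower with it (0.153).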

How the data were processed

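Small RNA libraries were made from gel- or device-purified RNA of 10 to 40 nucleotides, per the labels' protocols. The submitters' processing notes name cutadapt and Bowtie; versions, genome build, strand, multi-mapping and the scaling rule are not stated in them or in the labels. The WT column holds a deposited read count per gene. The other 3 columns hold a deposited signal equal to whole reads times 1 factor per library: 100% of values were whole multiples of the smallest, to a tolerance of 1e-06, and reads were recovered by division. Of the identifiers, 5789 matched RefSeq assembly R64 and 9 did not.

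Differences are of log2(value + 3.18), the 10th percentile of non-zero values, which understates changes of low genes. Reads were fitted with edgeR 4.0.16 (TMM normalization, genes kept by filterByExpr) and, as an alternative, DESeq2 1.42.0, in R 4.3.3; the scripts were tested on simulated data. Pseudocounts of 0.318 and 31.8, no filter, a filter at 31.8, division by library sums and size factors were alternatives. The genes and lists were chosen with earlier results of these data known. Named genes were the 10 members, their nearest listed neighbours, 3 lists of related genes, XRN1, and the 3 nearest patterns to ADH1 and PDC1. Molecular identifiers are not mentioned, so intervals cover counting error only.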

Additional observations from a re-analysis of the deposited data

Results flagged for a closer look

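Opposite directions in the 2 backgrounds, with counting intervals of both ratios away from 1, drew attention to PDC1 and BDH1; none of these differences was tested. On deletion of XRN1, PDC1 had a log2 difference of -1.98 with DCR1 and AGO1 and 1.61 without them, and BDH1 had -1.09 with them and 1.69 without them. On addition of DCR1 and AGO1, BDH1 had -0.77 without XRN1 and 2.01 with it. With size factors the values on deletion were -2.75 and 1.15 for PDC1 and -1.85 and 1.22 for BDH1, and those of BDH1 on addition were 0.81 and 3.89, so that the last opposition was not seen on that scale.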

How the results depend on the processing

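The main limits are 1 library per genotype, an unknown scaling rule and 627607 reads in WT, where 3 of the 10 members had fewer than 20 reads. No paired analysis was possible because each genotype has 1 library. Of 40 member differences, none that passed 2-fold as reported changed direction with another pseudocount or scaling. Their sizes depended on the scaling: 30 of the 40 shifted by more than counting error with size factors, and 13 with division by library sums. With a pseudocount of 31.8, 14 did so. Some differences under 2-fold changed sign with size factors. In RNAi over WT, ADH3 went from -0.79 to 1.04 and PDC5 from -0.74 to 0.95. In xrn1 RNAi over RNAi, ADH1 went from 0.54 to -0.22. Of the members lower in RNAi over WT (2 as reported), 0 passed 2-fold with a pseudocount of 31.8 and 1 with a filter at 31.8. In xrn1 over WT (2) the numbers were 0 and 0, and in xrn1 RNAi over RNAi (3) the number with a pseudocount of 31.8 was 1. With that pseudocount the share of all genes lower also fell, from 60.3% to 34.6% in RNAi over WT. It fell from 9.90% to 4.07% in xrn1 over WT and from 11.8% to 6.77% in xrn1 RNAi over RNAi. The share of all genes with the filter was not computed. With size factors, 6 members were higher in RNAi over WT in place of 3, ADH2, ADH3 and PDC1 being added. The share of all genes higher was then 34.7% in place of 15.2%. Per kb, the share of BDH1 in its pair was 20.8% in xrn1 RNAi, against 19.4% of reads, and 31.4% in RNAi, against 29.6%. For XRN1 deletion, the genes called (10 higher and 13 lower) became 21 lower with median-of-ratios normalization, 25 higher and 20 lower with all genes that had a read, and 94 higher and 112 lower with DESeq2; the cause was not tested.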

Other observations

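Of 5 regulators of these pathways, 1 was higher and 4 lower in xrn1 RNAi over xrn1, and 1 higher and 2 lower in RNAi over WT. Of all genes, 15.3% were higher and 58.1% lower in the comparison without XRN1 and 15.2% higher and 60.3% lower in that with it, so these few genes are not shown to differ from any others. The higher one was CAT8 in both, a transcription factor gene of growth on non-fermentable carbon, with 276 in xrn1 RNAi, 805 in RNAi, 25.8 in xrn1 and 57 in WT. ADR1, the gene of the activator of ADH2, had 7.24 in xrn1 RNAi, 21.3 in RNAi, 159 in xrn1 and 143 in WT, and was thus low in both libraries with DCR1 and AGO1, as ADH4 was. GCR1, a glycolytic activator gene, was 52.7 in xrn1 RNAi, 288 in RNAi, 200 in xrn1 and 159 in WT. Together the 10 members held 1.04% of the reads over genes in xrn1 RNAi, 0.847% in RNAi, 0.305% in xrn1 and 0.162% in WT.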
